A study of Mus musculus with 11 samples.

Results

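The genes described here are 40 interferon-stimulated and nucleic acid sensing genes of the mouse. They were chosen by name for their known function, with earlier results of these data known. They were looked for among the 55414 gene identifiers of each library. All 40 were found by symbol. All 40 were among the 14556 genes that passed a filter on low counts, Mx1 only through the irradiated libraries. The RNA came from the apex of C57BL/6 mouse hearts, and the libraries form 3 groups. In the F-PRT group (3 libraries, replicates 2 to 4) the apex received FLASH proton radiotherapy, which delivers the dose at an ultra-high rate. In the S-PRT group (4 libraries) it received proton radiotherapy at the standard dose rate, and in the NR group (4 libraries) it was not irradiated. Both irradiated groups received 40 Gy to the apex in a single dose and were studied 2 weeks later. Age and sex are not stated in the labels. Nor do they tie the libraries to different animals, and the p-values below therefore speak only of variation from library to library, part of which may be technical.

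Interferons are secreted proteins that cells release when their sensors meet viral or misplaced nucleic acid, including DNA that leaves a damaged nucleus. Type I interferon binds its receptor on the same or a neighbouring cell, JAK kinases phosphorylate STAT2, which joins IRF9 in a complex that binds a short DNA motif, the interferon-stimulated response element, near the start of many genes. The products of those genes block viral entry, translation and release, and many of them are themselves sensors of RNA or DNA, so that a cell exposed to interferon becomes more sensitive to nucleic acid. In the heart, macrophages, endothelial cells, fibroblasts and cardiomyocytes can all carry out this programme.

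The motif itself can be read before several of the members. The promoter windows below run from 250 bases before to 50 bases after the gene start in RefSeq on GRCm38.p6, 5′ to 3′ on the strand of the gene, with capitals marking each match to the response element. The letters searched were GAAA, any 2 bases and GAAA, or on the other strand TTTC, any 2 bases and TTTC. They are shown because members with a match differ widely in their values. Isg15 (chr4:156200769-156201068, minus strand), Bst2 (chr8:71537423-71537722, minus strand) and Ifitm3 (chr7:141010695-141010994, minus strand) rose in at least 1 irradiated group, Ddx60 (chr8:61927837-61928136, plus strand) rose in the paired comparison, and Slfn5 (chr11:82951852-82952151, plus strand) did not rise in any comparison.
Isg15: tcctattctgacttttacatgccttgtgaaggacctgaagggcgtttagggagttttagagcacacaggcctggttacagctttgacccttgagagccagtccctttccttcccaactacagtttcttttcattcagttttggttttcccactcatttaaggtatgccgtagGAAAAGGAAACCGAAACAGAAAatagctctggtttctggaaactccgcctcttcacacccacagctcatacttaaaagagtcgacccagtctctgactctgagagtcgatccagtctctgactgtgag
Bst2: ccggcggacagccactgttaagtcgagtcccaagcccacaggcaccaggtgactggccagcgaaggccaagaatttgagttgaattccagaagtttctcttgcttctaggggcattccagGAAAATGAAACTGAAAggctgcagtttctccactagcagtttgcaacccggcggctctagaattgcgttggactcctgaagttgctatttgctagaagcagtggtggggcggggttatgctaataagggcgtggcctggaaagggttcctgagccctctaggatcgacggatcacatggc
Ifitm3: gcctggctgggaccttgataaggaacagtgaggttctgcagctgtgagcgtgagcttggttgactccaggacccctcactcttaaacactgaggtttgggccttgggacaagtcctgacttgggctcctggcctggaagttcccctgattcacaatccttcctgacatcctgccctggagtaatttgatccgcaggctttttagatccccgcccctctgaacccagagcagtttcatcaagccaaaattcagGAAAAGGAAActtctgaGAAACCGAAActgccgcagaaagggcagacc
Ddx60: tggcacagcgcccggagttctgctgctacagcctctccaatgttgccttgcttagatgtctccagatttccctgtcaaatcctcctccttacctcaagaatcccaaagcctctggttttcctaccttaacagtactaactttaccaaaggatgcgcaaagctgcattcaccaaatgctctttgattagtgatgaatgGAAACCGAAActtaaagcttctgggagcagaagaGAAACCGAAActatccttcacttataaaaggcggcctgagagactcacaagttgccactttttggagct
Slfn5: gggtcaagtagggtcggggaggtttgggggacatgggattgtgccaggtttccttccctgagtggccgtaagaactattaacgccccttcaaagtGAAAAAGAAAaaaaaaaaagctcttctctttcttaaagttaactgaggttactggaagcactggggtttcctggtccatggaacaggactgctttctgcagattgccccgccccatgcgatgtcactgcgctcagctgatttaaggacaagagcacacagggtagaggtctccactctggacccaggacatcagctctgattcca
In Isg15 3 matches overlap in a single run that begins 78 bases before the gene start, in Bst2 2 overlapping matches begin 130 bases before it, and in Ifitm3 the 2 matches begin at bases 3 and 20 after it. Ddx60 holds 2 matches, at 53 and 19 bases before the start, and Slfn5 holds 1, at 155 bases before it. Of the 40 members, 29 had a promoter entry, and 11 of these 29 (37.9%) held the motif in at least 1 window. Among all 27025 genes with an entry, 1079 (3.99%) held it. No entry was at hand for Mx1, Mx2, Usp18, Ifi27l2a, Rtp4, Parp9, Parp14, Zbp1, Dhx58, Ifi204 and Tor3a. A match is a description of the letters and not a measured binding site.

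The libraries held 20758170 to 40136578 expected counts. The 8 cardiomyocyte markers that define the labelled tissue together had 22253 to 39681 TPM in F-PRT, 20458 to 23434 TPM in S-PRT and 19460 to 28084 TPM in NR (TPM corrects for transcript length as well as depth). In each library the log2 level of every gene, less its mean over all libraries, was correlated with transcript length over the 14556 genes. Spearman's rho was -0.56 to -0.16 in F-PRT, -0.26 to 0.27 in S-PRT and 0.34 to 0.42 in NR, so that long transcripts stood lower in the F-PRT libraries and higher in the NR libraries. This difference moves with the groups, and results of the members that change when it is removed are named where they stand. For the pathway and marker genes below, results with this length trend removed are not given, so their calls may depend on it. In F-PRT against NR, 10.8% of all genes rose at an adjusted p under 0.05, and 1.89% rose with the trend removed.

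At rest the members spanned a wide range of levels. In NR apex Mx1 had the lowest level, 0.0725 ± 0.065 TPM, and Ifitm3 the highest, 85.8 ± 31.1 TPM (SD, n = 4). Ifi27l2a at 24.8 ± 8.80 TPM and Bst2 at 19.7 ± 9.57 TPM followed Ifitm3, and the SDs of this pair overlapped. The level of a member in bulk tissue does not show which cells held it, and more cells of a type and more RNA per cell cannot be told apart.

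The members moved up and down together from library to library. As a summary level of each library, log2 CPM less the NR mean was averaged over the 40 members, where CPM are counts scaled to the depth of the library. The F-PRT libraries 2 to 4 stood at 1.40, 0.22 and 0.54 on this scale. The S-PRT libraries 1 to 4 stood at 0.45, 0.46, 1.46 and 1.46, and the NR libraries 1 to 4 at -0.34, -0.32, 0.41 and 0.25. All S-PRT libraries were above all NR libraries, whereas F-PRT replicate 3 lay below NR replicates 3 and 4. The groups averaged 0.72 ± 0.61 in F-PRT, 0.96 ± 0.58 in S-PRT and 0 ± 0.39 in NR (SD, n = 3, 4 and 4).

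**Figure D1:**
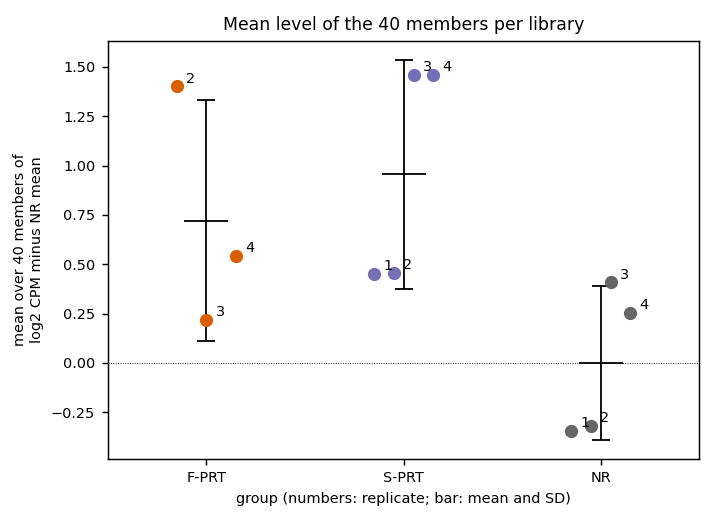
Summary level of the 40 members, as log2 CPM above the mean of NR (vertical axis, log2 units), for each library, by group, with the replicate number beside each point and a bar for the mean and SD. F-PRT replicate 2 at 1.40 and S-PRT replicates 3 and 4 at 1.46 stand highest, and NR replicates 3 and 4 stand above NR replicates 1 and 2.

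Within every group the spread had an order. S-PRT replicates 3 and 4 were both above S-PRT replicates 1 and 2 in 39 of 40 members, and NR replicates 3 and 4 were both above NR replicates 1 and 2 in 40 of 40. In F-PRT, replicate 2 was the highest library for 39 members, and replicate 3 was the lowest for 28. F-PRT replicate 2 exceeded all 4 NR libraries in 37 members, F-PRT replicate 4 in 21 and F-PRT replicate 3 in 9. S-PRT replicates 3 and 4 both exceeded all NR libraries in 38 members, and S-PRT replicates 1 and 2 did so in 16. Same-numbered S-PRT and NR libraries varied together over the genes measured. A paired fit with the replicate number as a block is therefore given beside the unpaired one for this comparison. Within replicates 1 and 2 and within 3 and 4, different numbers correlated at 0.167 to 0.443, against 0.184 to 0.363 for the same number. No label pairs these libraries, so every paired result below rests on a pairing taken from titles and data. The S-PRT minus NR difference of the summary level was 0.795, 0.776, 1.05 and 1.205 in pairs 1 to 4, a narrower spread than that of either group. Because replicates 3 and 4 stood above 1 and 2 in both groups, this narrow spread cannot show that same-numbered libraries belong together.

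**Figure D2:**
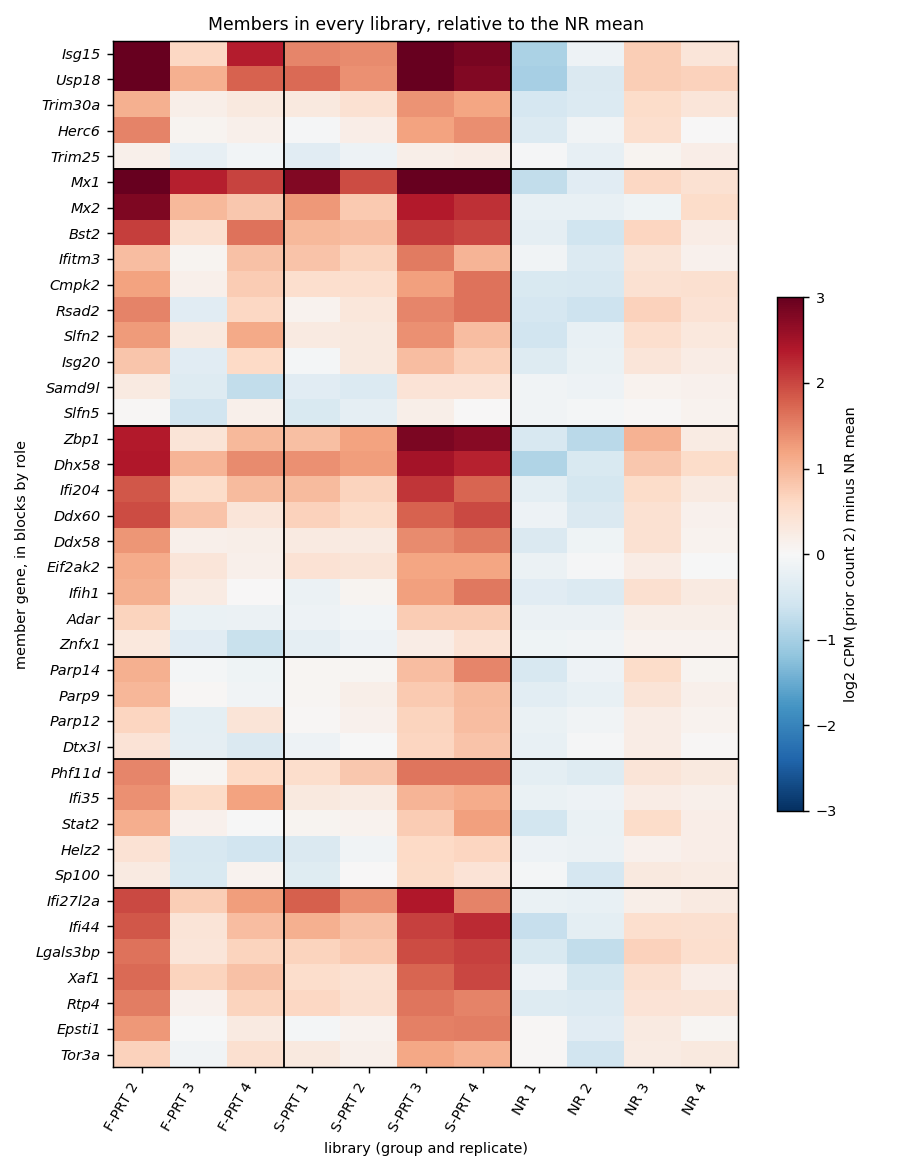
Log2 CPM of each member minus its NR mean (colour, from blue at -3 to red at 3) in every library (columns, F-PRT, S-PRT, NR), with members in rows by role in the order ISG15 and RING ligases, antiviral effectors, sensors, PARP and DTX3L, nuclear proteins, others. The columns of S-PRT replicates 3 and 4 and of F-PRT replicate 2 are red in nearly every row, and Trim25, Samd9l, Slfn5 and Znfx1 stay pale throughout.

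In F-PRT, 8 of the 40 members rose and 0 fell against NR at an adjusted p under 0.05, where 10.8% of all genes tested rose and 8.67% fell. The 8 were Mx1, Mx2, Isg15, Usp18, Bst2, Dhx58, Ifi35 and Ifi27l2a. At an unadjusted p under 0.05, 18 members were higher and 0 lower, against 19.6% and 16.5% of all genes. The log2 fold changes of the 40 ran from -0.23 to 3.90 with a median of 0.65, whereas the median of all genes was 0.03, and 33 of 40 were positive. In 7 members every F-PRT library was above every NR library, and in 0 every one was below. Among all genes 17.5% were above and 13.9% below, so the first count does not set the members apart. Without F-PRT replicate 2, 3 members rose (Mx1, Ifi27l2a and Ifi35, where 7.27% of all genes rose), and without F-PRT replicate 3, 15 rose (13.8% of all genes). The median of the 40 was 0.22 without F-PRT replicate 2 and 0.35 with 1 surrogate variable, an estimated unknown factor, in the fit. Bst2, Dhx58, Mx2 and Usp18 were also lost without NR replicate 1 or without NR replicate 2, Mx2 without NR replicate 3, and Bst2 and Dhx58 without F-PRT replicate 4. With the length trend removed only Mx1 passed (1.89% of all genes), although 39 of 40 log2 fold changes were then positive, with a median of 0.71. Mx1 entered the test only through the irradiated libraries, which favours a rise against NR.

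In S-PRT, 3 of the 40 (Mx1, Ifi27l2a and Ifitm3) rose and 0 fell against NR in the unpaired fit, where 0.872% of all genes rose and 0.419% fell. In the paired fit 30 members rose and 0 fell, where 6.42% of all genes rose and 3.33% fell. The 3 were among the 30, and of the 3 Mx1 entered the test only through the irradiated libraries, which favours a rise. The log2 fold changes of the 40 ran from -0.11 to 3.78 with a median of 0.89, against 0.01 for all genes, and 38 of 40 were positive. The median was 0.35 with 1 surrogate variable and 0.41 on the log2(TPM + 1) scale. That of all genes was then -0.005 and -0.13. The fit with the surrogate variable called 13 members higher (1.79% of all genes). At an unadjusted p under 0.05, 27 were higher and 0 lower in the unpaired fit, against 11% and 7.32% of all genes. In 16 members all S-PRT libraries were above all NR libraries (7.34% of all genes) and in 0 all were below (6.71%), and in 33 the S-PRT library exceeded the NR library of its number in all 4 pairs (17.9% of all genes). The 10 members that did not pass in the paired fit were Isg20, Dtx3l, Trim25, Samd9l, Sp100, Slfn5, Epsti1, Znfx1, Adar and Helz2, with log2 fold changes of -0.13 to 0.91 and adjusted p of 0.0688 to 0.92. With the length trend removed the unpaired fit called 0 members (edgeR; 0.22% of all genes rose), and the paired fit called 32, adding Adar and Dtx3l (4.12% of all genes). The unpaired count was 0 without NR replicate 1. It was 1 (Ifi27l2a) without NR replicate 2, 3 or 4 or S-PRT replicate 3 or 4, and 2 without S-PRT replicate 1, which lost Ifitm3. It was 6 without F-PRT replicate 4 and 8 without F-PRT replicate 2, F-PRT replicate 3 or S-PRT replicate 2, and in these fits 0.138% to 1.81% of all genes rose. The paired count was 22 to 30 when 1 of the 4 pairs was left out (2.00% to 6.29% of all genes). Both irradiated groups are set against the same NR libraries, so their values below are given side by side and not as independent support of each other.

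**Figure D3:**
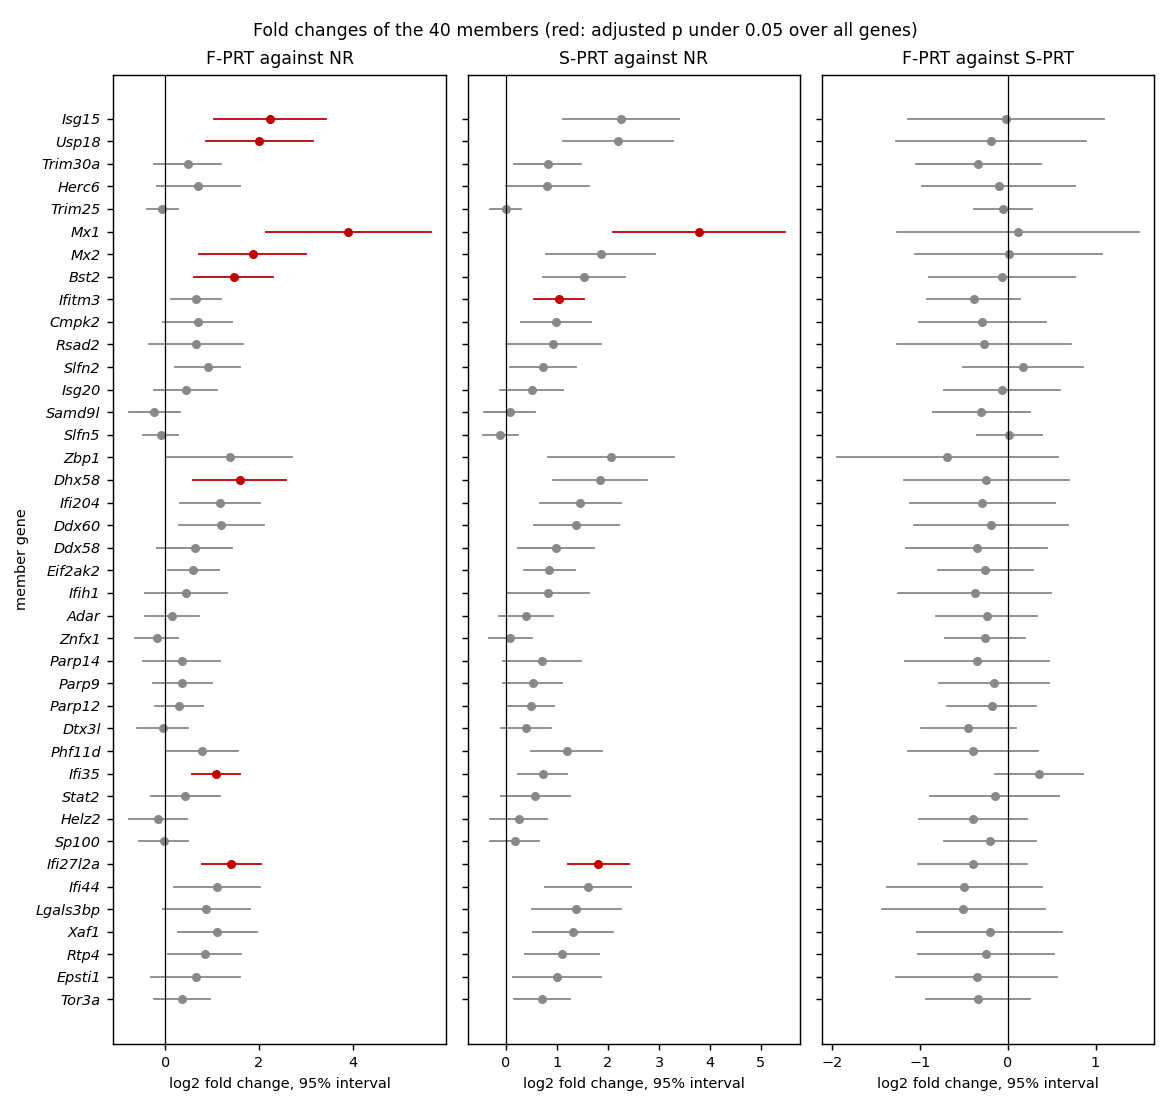
Log2 fold change with its 95% interval (horizontal axis) of each member, in panels for F-PRT against NR, S-PRT against NR and the 2 irradiated groups, from the unpaired fit, with red for an adjusted p under 0.05. Mx1 lies farthest to the right against NR in both irradiated groups, and every interval in the third panel crosses 0.

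The genes of the ISG15 system open the list by role. ISG15 is a small ubiquitin-like protein that is attached to other proteins and also secreted, and USP18 removes it and holds back signalling at the type I interferon receptor. Isg15 (ENSMUSG00000035692.8) had 16.4, 2.89 and 9.76 CPM in F-PRT (replicates 2 to 4, here and below), 5.23, 5.04, 15.3 and 13.6 CPM in S-PRT (replicates 1 to 4) and 0.925, 1.64, 3.14 and 2.40 CPM in NR (replicates 1 to 4). Every S-PRT library was above every NR library, and F-PRT replicate 3 fell below the highest NR library. Its log2 fold change was 2.24 ± 0.55 for F-PRT against NR (SE; adjusted p = 0.018) and 2.26 ± 0.52 for S-PRT against NR (adjusted p = 0.0552; 0.000171 in the paired fit). Usp18 (ENSMUSG00000030107.11) had 16.0, 4.06 and 6.65 CPM in F-PRT, 6.34, 5.04, 15.6 and 13.5 CPM in S-PRT and 0.925, 1.38, 3.20 and 3.13 CPM in NR. No irradiated library overlapped with NR for Usp18. It rose by 2.01 ± 0.53 on the log2 scale in F-PRT (adjusted p = 0.0225) and had 2.20 ± 0.50 in S-PRT (adjusted p = 0.0537; 0.000116 in the paired fit).

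Of the 3 ligases of this role none passed in the unpaired edgeR fit. Herc6, the main ligase that attaches ISG15 in the mouse, had a log2 fold change of 0.71 ± 0.41 in F-PRT (adjusted p = 0.23) and rose by 0.76 ± 0.19 in the paired S-PRT fit (adjusted p = 0.0379). Trim30a, which restrains inflammatory signalling, had 0.48 ± 0.33 in F-PRT (adjusted p = 0.315) and rose by 0.82 ± 0.09 in the paired S-PRT fit (adjusted p = 0.00159). Trim25, the ubiquitin ligase known for activating RIG-I, had 18.9 ± 2.56 CPM in F-PRT, 19.6 ± 3.67 CPM in S-PRT and 19.7 ± 2.58 CPM in NR (SD, n = 3, 4 and 4). These groups overlapped and the sign of its small difference changed with the setting. Of the 5 genes of this role, 2 rose in F-PRT, 0 rose in S-PRT unpaired and 4 rose in S-PRT paired. Of all genes 10.8%, 0.872% and 6.42% rose in these fits.

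Among the antiviral effectors the Mx genes changed most. They encode dynamin-like GTPases that trap viral ribonucleoproteins. C57BL/6 mice, like most inbred strains, carry defective alleles of them, so their transcripts do not stand here for a working protein. Mx1 (ENSMUSG00000000386.17) had 4.67, 0.834 and 0.662 CPM in F-PRT, 1.16, 0.63, 2.65 and 2.98 CPM in S-PRT and 0.0402, 0.0748, 0.207 and 0.178 CPM in NR. All 7 irradiated libraries were above all NR libraries, and the NR values rested on 1, 2, 7 and 8 expected counts in replicates 1 to 4. Mx1 passed the count filter only through the irradiated libraries, which favours a rise against NR and such a separation. The log2 fold change was 3.90 ± 0.81 in F-PRT (adjusted p = 0.011) and 3.78 ± 0.78 in S-PRT (adjusted p = 0.0374; 0.00031 paired). Mx2 (ENSMUSG00000023341.16) had 4.71, 1.28 and 1.12 CPM in F-PRT, 1.63, 1.12, 3.48 and 3.06 CPM in S-PRT and 0.523, 0.523, 0.563 and 0.932 CPM in NR, again with no overlap between irradiated and NR libraries. It rose by 1.86 ± 0.53 in F-PRT (adjusted p = 0.0293), and in S-PRT it had 1.86 ± 0.50 (adjusted p = 0.0875; 0.00475 paired).

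The membrane-bound effectors had the highest resting TPM of this role. Bst2 (ENSMUSG00000046718.9), or tetherin, which holds budding virions at the cell surface, had 45.4, 14.96 and 33.4 CPM in F-PRT, 21.3, 20.5, 46.0 and 43.2 CPM in S-PRT and 8.93, 7.14, 16.8 and 12.5 CPM in NR. S-PRT stood clear of NR, and F-PRT replicate 3 lay within the NR range. The log2 fold change of Bst2 was 1.46 ± 0.39 in F-PRT (adjusted p = 0.024) and 1.53 ± 0.37 in S-PRT (adjusted p = 0.0652; 0.000116 paired). Ifitm3 (ENSMUSG00000025492.7), which blocks fusion of viruses in endosomes, had 74.7, 41.5 and 71.3 CPM in F-PRT, 70.5, 62.4, 116 and 79.3 CPM in S-PRT and 36.1, 29.3, 51.4 and 42.7 CPM in NR. It rose by 1.04 ± 0.23 in S-PRT (adjusted p = 0.048; 0.000149 paired), with no overlap, and had 0.65 ± 0.24 in F-PRT (adjusted p = 0.0774), where replicate 3 overlapped with NR.

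The other effectors are enzymes and translation inhibitors. Rsad2, which encodes viperin, a maker of a chain-terminating nucleotide, and Cmpk2, a mitochondrial nucleotide kinase, are neighbours in the genome. In the paired S-PRT fit they rose by 0.90 ± 0.10 and 0.98 ± 0.10 (adjusted p = 0.00139 and 0.000841), and in F-PRT they had 0.66 ± 0.46 and 0.69 ± 0.34 (adjusted p = 0.324 and 0.16). Slfn2, a Schlafen protein known for keeping T cells quiescent, rose by 0.72 ± 0.11 in the paired S-PRT fit (adjusted p = 0.00471) and had 0.90 ± 0.32 in F-PRT (adjusted p = 0.0636). The exonuclease gene Isg20 and the translation inhibitor gene Samd9l passed in neither group. Slfn5, the other Schlafen member, had 58.4, 38.5 and 63.2 CPM in F-PRT, 41.3, 47.4, 64.8 and 57.8 CPM in S-PRT and 53.3, 55.1, 58.8 and 61.7 CPM in NR, and its groups overlapped. Of the 10 effectors, 3 rose in F-PRT, 2 in S-PRT unpaired and 7 in S-PRT paired (10.8%, 0.872% and 6.42% of all genes).

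**Figure D4:**
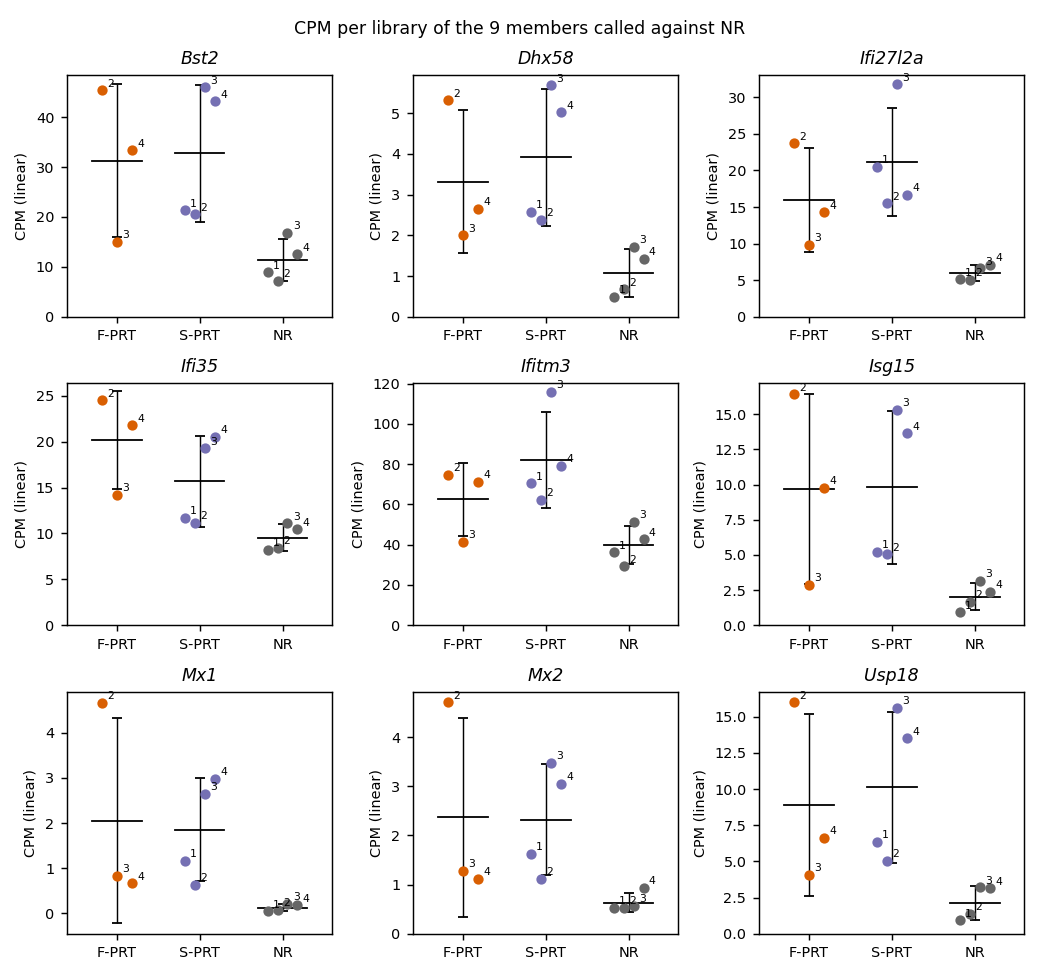
CPM (vertical axis, linear) of the 9 members that passed against NR in the unpaired fit in at least 1 irradiated group, by library, with replicate numbers, the mean as a line and the SD as a bar. F-PRT replicate 2 is the highest F-PRT library in all 9 panels, and replicate 3 or 4 is the lowest.

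The sensors recognise nucleic acid and feed back on interferon production. RIG-I (gene Ddx58) and MDA5 (Ifih1) bind viral RNA and signal through mitochondria, and LGP2 (Dhx58) tunes them. Dhx58 (ENSMUSG00000017830.16) had 5.32, 2.00 and 2.65 CPM in F-PRT, 2.57, 2.38, 5.69 and 5.02 CPM in S-PRT and 0.482, 0.673, 1.72 and 1.42 CPM in NR, with no overlap between the irradiated and the NR libraries. It rose by 1.59 ± 0.46 in F-PRT (adjusted p = 0.031), and in S-PRT it had 1.84 ± 0.43 (adjusted p = 0.0556; 0.000542 paired). RIG-I and MDA5 transcripts rose in the paired S-PRT fit, by 0.92 ± 0.16 and 0.74 ± 0.17 (adjusted p = 0.00889 and 0.0269). In F-PRT they had 0.63 ± 0.37 and 0.45 ± 0.40 (adjusted p = 0.245 and 0.446).

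None of the sensors outside the RIG-I family passed in the unpaired edgeR fit. Zbp1, which detects left-handed nucleic acid and can start necroptosis, had 3.95, 0.945 and 1.44 CPM in F-PRT, 1.37, 1.70, 5.41 and 5.02 CPM in S-PRT and 0.482, 0.374, 1.51 and 0.844 CPM in NR. F-PRT replicate 2 and S-PRT replicates 3 and 4 were far above the rest, and S-PRT replicate 1 and both other F-PRT libraries lay below NR replicate 3. Zbp1 rose by 2.08 ± 0.22 in the paired S-PRT fit (adjusted p = 0.001) and had 1.37 ± 0.62 in F-PRT (adjusted p = 0.128). The DNA sensor gene Ifi204 rose by 1.43 ± 0.12 and the helicase gene Ddx60 by 1.34 ± 0.18 in the paired S-PRT fit (adjusted p = 0.00031 and 0.00324). In F-PRT this pair had 1.16 ± 0.39 and 1.19 ± 0.42 (adjusted p = 0.0544 and 0.062). Eif2ak2, which encodes the translation-blocking kinase PKR, rose by 0.82 ± 0.13 in the paired S-PRT fit (adjusted p = 0.00641) and had 0.59 ± 0.25 in F-PRT (adjusted p = 0.109). Adar, which edits double-stranded RNA so that it escapes MDA5, and Znfx1, an RNA helicase of antiviral defence, did not pass in either group. Of the 9 sensors, 1 rose in F-PRT, 0 in S-PRT unpaired and 7 in S-PRT paired (10.8%, 0.872% and 6.42% of all genes). The F-PRT count of the sensors is near the share of all genes.

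The ADP-ribosylation genes showed the smallest median of the role groups against NR, 0.33 in F-PRT and 0.50 in S-PRT. PARP9 and DTX3L act as a complex that modifies histones, and Parp14, Dtx3l and Parp9 are successive coding genes in the genome. Parp12 (ENSMUSG00000038507.7), a mono-ADP-ribosyltransferase of antiviral defence, had 20.5, 10.7 and 16.9 CPM in F-PRT, 13.2, 14.3, 20.5 and 24.7 CPM in S-PRT and 11.3, 11.999, 15.2 and 13.9 CPM in NR. Its groups overlapped, the log2 fold change was 0.30 ± 0.23 in F-PRT (adjusted p = 0.381) and 0.48 ± 0.22 in S-PRT (adjusted p = 0.264), and it rose in the paired S-PRT fit (adjusted p = 0.0356). Parp9 and Parp14 also rose in the paired fit (adjusted p = 0.0141 and 0.049), and Dtx3l did not (adjusted p = 0.131). Without F-PRT replicate 2, the F-PRT log2 fold changes of Parp9 and Parp14 were -0.08 and -0.15.

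Among the nuclear proteins only Ifi35 rose in the unpaired fits, and it did so in F-PRT. Ifi35 (ENSMUSG00000010358.14), a leucine zipper protein that can act as a danger signal outside the cell, had 24.5, 14.2 and 21.8 CPM in F-PRT, 11.7, 11.2, 19.3 and 20.5 CPM in S-PRT and 8.20, 8.45, 11.1 and 10.5 CPM in NR. All irradiated libraries were above all NR libraries. It rose by 1.08 ± 0.23 in F-PRT (adjusted p = 0.0122), and in S-PRT it had 0.72 ± 0.22 (adjusted p = 0.119; 0.00653 paired). Stat2, the transcription factor of the type I interferon complex, had 0.43 ± 0.34 in F-PRT (adjusted p = 0.385) and rose by 0.56 ± 0.13 in the paired S-PRT fit (adjusted p = 0.0337). Phf11d, a PHD finger protein, rose by 1.17 ± 0.11 in the paired S-PRT fit (adjusted p = 0.000703) and had 0.79 ± 0.35 in F-PRT (adjusted p = 0.12). Sp100, a nuclear body protein, and Helz2, a helicase co-activator, passed in neither group.

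The remaining 7 members have diverse products and the highest median in S-PRT, 1.32, with 0.87 in F-PRT. Ifi27l2a (ENSMUSG00000079017.4), a small hydrophobic protein of the ISG12 family, had 23.7, 9.84 and 14.3 CPM in F-PRT, 20.5, 15.5, 31.8 and 16.7 CPM in S-PRT and 5.11, 5.08, 6.64 and 7.10 CPM in NR. No irradiated library overlapped with NR, and S-PRT replicate 3 was the highest. It rose in both groups, by 1.41 ± 0.29 in F-PRT (adjusted p = 0.0108) and by 1.81 ± 0.28 in S-PRT (adjusted p = 0.0128; 0.000484 paired). Lgals3bp, a secreted galectin-binding glycoprotein, had 58.8, 24.2 and 30.0 CPM in F-PRT, 29.9, 32.4, 73.4 and 77.8 CPM in S-PRT and 13.7, 11.3, 30.3 and 26.7 CPM in NR. S-PRT replicate 1 lay just below NR replicate 3, so the groups overlapped, yet the paired difference varied little (1.37 ± 0.08, adjusted p = 0.000116). In F-PRT Lgals3bp had 0.87 ± 0.43 (adjusted p = 0.161). Ifi44, Xaf1, Rtp4 and Tor3a rose in the paired S-PRT fit by 0.68 to 1.60, and none of these passed in F-PRT (adjusted p = 0.0614 to 0.364). Xaf1 encodes a binding partner of the apoptosis inhibitor XIAP, Rtp4 a chaperone of membrane receptors, and Tor3a a torsin ATPase. Epsti1 passed in neither group (adjusted p = 0.0688 in the paired S-PRT fit).

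The design sets FLASH against standard dose rate at the same dose, and here 0 of the 40 members rose and 0 fell in F-PRT against S-PRT. Over all genes 0% rose and 0% fell in that fit (edgeR), and 0 members had an unadjusted p under 0.05 in either direction, where 8.48% and 7.42% of all genes did. DESeq2 also called 0 members, with 0.495% of all genes higher and 0.653% lower. In 0 members did the libraries of the groups separate, where 5.45% of all genes were higher and 5.17% lower without overlap. The log2 fold changes ran from -0.69 for Zbp1 to 0.36 for Ifi35, with a median of -0.25 against 0.00 for all genes, and 35 of 40 were negative. This median was -0.08 with library size only (13 of 40 positive), -0.05 with 1 surrogate variable, -0.04 on the log2(TPM + 1) scale (15 of 40 positive in each of these), -0.43 with the replicate block, and -0.69 to -0.06 over left-out libraries, with the ends at F-PRT replicate 2 and S-PRT replicate 4. For all genes the median was 0.19 with library size only, 0.02 with 1 surrogate variable and 0.13 on the log2(TPM + 1) scale. The smallest unadjusted p was 0.0994, for Dtx3l (-0.45 ± 0.25, adjusted p = 0.395).

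These data do not show that the modes act alike on the members. The 95% intervals of F-PRT against S-PRT were 0.66 to 2.77 log2 units wide, with a median of 1.48, and 18 of 40 lay within a change of 1 log2 unit either way. Mx1 had an interval of -1.27 to 1.50 around 0.12, Isg15 of -1.14 to 1.10 around -0.02, and Lgals3bp of -1.44 to 0.43 around -0.51. Ifitm3 had -0.39 with an interval of -0.93 to 0.14, and Ifi35 had 0.36 with -0.14 to 0.86. The F-PRT values depended on replicate 2: without it the difference was -1.36 for Mx1, -0.98 for Mx2 and -0.91 for Usp18, and the count of members called stayed at 0. A member past the threshold in one irradiated group and not in the other is therefore not shown to differ between them.

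Few genes around the members in the pathway passed the test. Of 10 interferon ligand genes none passed the count filter. Ifng had 5, 1 and 1 expected counts in F-PRT, 2, 0, 0 and 7 in S-PRT, and 1, 0, 0 and 0 in NR. Ifnb1 and Ifna4 had 1 count each, in F-PRT replicate 2, and the other 7 ligands had 0 in every library. Of 7 genes for interferon receptors and JAK kinases, 0 passed in any comparison, paired included.

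Of 11 genes that act upstream of interferon, such as adaptors and other sensors, 0 passed in the unpaired fits, and Tlr3, the endosomal receptor for double-stranded RNA, rose in the paired S-PRT fit (adjusted p = 0.0124). Of 8 negative regulators and nucleases 4 rose in F-PRT, 0 in S-PRT unpaired and 1, Socs3, in S-PRT paired. Of all genes 10.8%, 0.872% and 6.42% rose in these fits. Socs3, which inhibits JAK signalling, had a log2 fold change of 1.38 ± 0.32 in F-PRT (adjusted p = 0.0155). Trex1, a DNA exonuclease that clears cytosolic DNA, had 0.59 ± 0.14 (adjusted p = 0.0158). Rnaseh2c and Rnaseh2a, subunits of an enzyme that removes RNA from DNA, had 0.72 ± 0.18 and 0.29 ± 0.09 (adjusted p = 0.0176 and 0.0388). None of the 8 passed in F-PRT against S-PRT.

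Among the immune cell markers the macrophage sum had the same high libraries as the members. The summed level of 12 macrophage markers was 234, 85.8 and 191 TPM in F-PRT, 105, 99.7, 247 and 207 TPM in S-PRT, and 72.2, 73.5, 134 and 153 TPM in NR. The libraries highest in the members were also highest in the macrophage sum of their group, namely F-PRT replicate 2 and replicates 3 and 4 of S-PRT and NR. In S-PRT and NR, replicates 3 and 4 were also highest in the other immune, endothelial, fibroblast, and pericyte and smooth muscle sums. In those sums F-PRT replicate 2 was not the highest. Mitochondrially encoded transcripts made up 31.6%, 42.3% and 24.2% of the counts in F-PRT. Their share was 43.5%, 42.7%, 41.5% and 37.1% in S-PRT, and 43.8%, 38.8%, 34.9% and 30.6% in NR. TPM are shares of a library, so the sums here and of the other cell types can shift with this share. Its part in their order was not tested. Of the 12, C1qa and C1qb, subunits of complement C1q, rose in F-PRT, and Cd163 and Timd4, markers of resident macrophages, fell in F-PRT, whereas in S-PRT unpaired 0 rose and Cd163 fell. In the paired S-PRT fit 6 of the 12 rose and 2 fell (6.42% and 3.33% of all genes). Of 9 monocyte and neutrophil markers 8 passed the count filter, and 1 rose and 0 fell in each irradiated group unpaired (10.8% and 0.872% of all genes rose). This was Ccr2, the receptor of recruited monocytes, which rose by 2.18 ± 0.27 in F-PRT (adjusted p = 0.00237) and by 2.33 ± 0.25 in S-PRT (adjusted p = 0.00320). The log2 fold changes of the 8 ran from -0.75 to 2.18 in F-PRT and from 0.05 to 2.33 in S-PRT. In the paired S-PRT fit 4 of the 8 rose and 0 fell (6.42% and 3.33% of all genes). The 9 monocyte and neutrophil markers together had 22.2 to 28.2 TPM in F-PRT, 14.9 to 44.3 TPM in S-PRT and 10.3 to 27.9 TPM in NR, and the highest F-PRT library here was replicate 3, the lowest in the members.

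Other cell types were measured the same way. Bst2 is also a marker of plasmacytoid dendritic cells, and the other 5 markers of that cell together had 9.00 to 19.0 TPM in F-PRT, 7.94 to 13.7 TPM in S-PRT and 9.53 to 17.1 TPM in NR. Nearly all of that sum was Tcf4, a transcription factor that many cell types express, whereas Siglech, a defining surface receptor of the cell, had 0.05 to 0.07 TPM in F-PRT, 0 to 0.02 TPM in S-PRT and 0.06 to 0.13 TPM in NR. Klk1 was at 0 in every irradiated library, Ccr9 did not exceed 0.05 TPM in any library, and Pacsin1, a membrane-trafficking protein also found in neurons, rose in F-PRT and in S-PRT (adjusted p = 0.0221 and 0.0306) at no more than 1.66 TPM. The 10 markers of T, NK and B cells had 1.19 to 3.19 TPM in F-PRT, 1.18 to 4.59 TPM in S-PRT and 1.98 to 4.45 TPM in NR. Of these, 4 passed the count filter and 0 rose or fell. Of 8 endothelial markers Flt1 and Tek, a VEGF receptor and the angiopoietin receptor, fell in both irradiated groups, and the 8 together had 298 to 1041 TPM in F-PRT, 268 to 375 TPM in S-PRT and 383 to 719 TPM in NR. In the paired S-PRT fit 6 of the 8 fell (3.33% of all genes). Of 7 fibroblast markers Pdgfra, a growth factor receptor, fell in F-PRT (adjusted p = 0.00864) and 0 passed in S-PRT unpaired, and in the paired S-PRT fit Pdgfra fell and Postn, a matrix protein gene, rose. Of 6 pericyte and smooth muscle markers 0 passed in the unpaired fits, and Pdgfrb and Rgs5 fell in the paired S-PRT fit. The part of cell composition in the members' changes was not tested.

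Transcript length was related to the size of the change. Over the 40 members Spearman's rho between mean transcript length and log2 fold change was -0.64 in F-PRT against NR and -0.58 in S-PRT against NR, and over all 14556 genes it was -0.55 and -0.38. These are correlations across genes, which share libraries and are not independent replicates. Of the 15 members under 2000 bases, 6 rose in F-PRT and 2 in S-PRT, with median log2 fold changes of 1.08 and 1.19. Of the 25 longer members, 2 rose in F-PRT and 1 in S-PRT, with medians of 0.45 and 0.81. Of all genes 10.8% rose in F-PRT and 0.872% in S-PRT unpaired, and the F-PRT count of the longer members is near that share. With the length trend removed, rho over the members was -0.31 in F-PRT and -0.46 in S-PRT, and -0.02 and -0.01 over all genes. The members' medians against NR were then 0.71 in F-PRT and 0.91 in S-PRT.

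**Figure D5:**
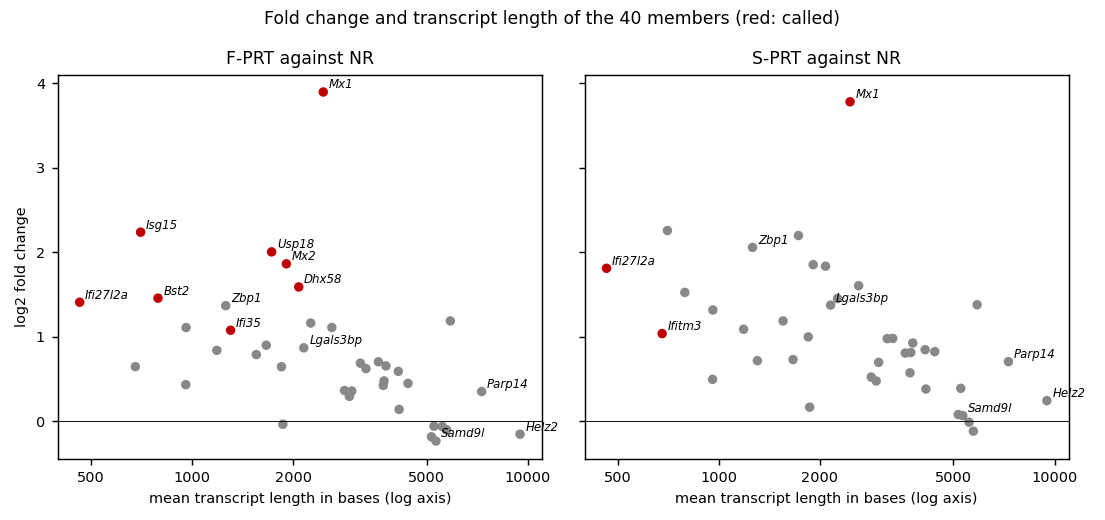
Log2 fold change against NR (vertical axis) and mean transcript length in bases (horizontal log axis) of the 40 members, for F-PRT and S-PRT, with red for an adjusted p under 0.05 in the unpaired fit. Short members such as Isg15 and Bst2 lie high, Mx1 lies above the trend, and the longest, Helz2, lies near 0.

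The log2 fold changes of members with and without the response element overlapped. The 11 with a match had a median of 0.63 (-0.10 to 2.24) in F-PRT and 0.93 (-0.11 to 2.26) in S-PRT. The 18 without had 0.54 (-0.23 to 1.11) in F-PRT and 0.61 (-0.01 to 1.61) in S-PRT. Isg15, with the run of 3 matches printed above, and Slfn5, with a single match, marked both ends of the first class, at 2.24 and -0.10 in F-PRT and 2.26 and -0.11 in S-PRT. Ifi35 and Ifi44, without a match in the window, had 1.08 and 1.11 in F-PRT and 0.72 and 1.61 in S-PRT. No match says only that these letters are not in this window.

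The deposited transcript length of a gene is an average over its isoforms, weighted by their estimated abundance, and gives another readout of the same members. Helz2 had a shorter average length in all F-PRT and all S-PRT libraries than in any NR library, where 7.62% and 2.20% of all genes were shorter without overlap. Sp100 and Tor3a were longer in F-PRT than in NR (8.59% of all genes), and Ifih1 was longer in S-PRT than in NR (1.84%). In F-PRT against S-PRT, Tor3a and Adar were longer (4.83%) and 0 members were shorter (4.41%). With 1 or 2 of 40 members in each class, these counts are near the shares of all genes. In 13 members, Adar and Sp100 among them, some expected counts were not whole, which means that some reads were divided among several genes and makes the values uncertain.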

How the data were processed

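Bulk RNA-seq libraries of mouse heart apex (3 F-PRT, 4 S-PRT and 4 NR libraries) were grouped by their titles. Per the labels' protocols, poly(A) RNA was made into libraries with a directional kit. The strand setting of the counting is not given in the sources at hand. The submitters' processing notes list STAR, RSEM, edgeR, cutadapt and FastQC and name both GRCm39 and mm10 as builds, so coordinates are those of the RefSeq promoter table only. The deposited files hold expected counts, which share ambiguous reads between genes and need not be whole, and the authors' TPM, per the file headers. They also hold a deposited length per gene in bases, averaged over isoforms. Of 55414 identifiers, 52081 matched a symbol, the 40 members included. Of the members, 27 had whole counts in every library (within 1e-09). Each library had 20758170 to 40136578 counts, and no replicate pair was alike within counting noise.

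Expected counts were rounded, filtered with filterByExpr (minimum count 10, minimum total 15; 14556 genes), TMM-scaled and fitted over all 11 libraries by edgeR 4.0.16 quasi-likelihood (R 4.3.3; residual degrees of freedom 8). A gene was called at a p under 0.05 after Benjamini-Hochberg adjustment over all genes tested, and adjusted p in the text come from edgeR. Log2 CPM used a prior count of 2. The members and lists were chosen with earlier results of these data known. Members that passed in the unpaired edgeR fit are given in full, as is the member with the smallest p in S-PRT against NR in a role without one. Other members are given by fold change, range or count, and non-members are named only from the pathway and marker lists. Zbp1, Lgals3bp, Slfn5 and Trim25 were added after their values were seen. An item of the pathway lists is not reported here.

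Deviations from the group mean over 11107 genes correlated at 0.184 to 0.363 between same-numbered S-PRT and NR libraries, all over 0.1, so these numbers were taken as pairs for a fit with the replicate block. The pairing comes from titles and data, since animals and days are not in the labels, and libraries 1 and 2, and 3 and 4, also correlated across numbers (0.167 to 0.443). Alternatives were DESeq2 1.42.0, scaling by library size only, no filter, a filter at 50 counts, log2(TPM + 1) with limma 3.58.1, only the 2 groups compared, 1 surrogate variable (sva 3.50.0), removal of the length trend by lowess (span 0.3), the replicate block and each library left out. The paired fits with the length trend removed or with a pair left out were chosen after seeing the data. Only the unpaired edgeR fits against NR were run on simulated counts, drawn without a length trend or a replicate block. The paired fit and the other alternatives were not tested in that way.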

Additional observations from a re-analysis of the deposited data

Results flagged for a closer look

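In 1 of 82 sets of values examined (each group of 4 libraries for each member and the summary level), a single library stood far from the others. Mx2 had 0.932 CPM in NR replicate 4, against 0.523, 0.523 and 0.563 CPM in NR replicates 1 to 3, and the gap took 0.902 of the group's range, which is above Dixon's 95% limit for 4 values. Chance flags about 1 in 20 such sets, and the cause was not tested. All 7 irradiated libraries remained above 0.932 CPM for Mx2.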

How the results depend on the processing

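In every setting run, 0 members were lower than NR and 0 were called in F-PRT against S-PRT. The count of members that rose in F-PRT against NR, 8 as reported, was 1 with library size only (0.474% of all genes rose), 15 without a filter (5.27%), 14 with DESeq2 (11.2%), 0 with log2(TPM + 1) (0.254%), 19 with 1 surrogate variable (14.8%), 1 with the length trend removed (1.89%), and 3 to 15 when each library was left out (4.60% to 13.8%). For S-PRT against NR, 3 as reported, it was 0, 20, 18, 0, 13 and 0 under these same 6 settings (0.0756%, 1.60%, 3.16%, 0.00687%, 1.79% and 0.22%), 13 with only the 2 groups compared (2.37%), and 0 to 8 when each library was left out. With the replicate block it was 30 in S-PRT against NR. Removing the length trend from the paired fit gave 32, and leaving out pair 1, 2, 3 or 4 gave 28, 30, 22 and 27. F-PRT numbers do not pair with those of the other groups (correlations of same-numbered libraries -0.446 to 0.233), and a replicate block there gave 0 members in both F-PRT comparisons. Scaling by library size only moved the median of all genes by -0.14 in S-PRT against NR and 0.19 in F-PRT against S-PRT. The causes of these changes were not tested.

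Small log2 fold changes changed sign in a few members. In S-PRT against NR, Trim25 was 0.092 with the length trend removed, 0.091 when this was paired and 0.082 without pair 1, with -0.096 to 0.096 over left-out libraries. Samd9l was -0.061 with library size only, -0.096 with TPM, -0.27 with the surrogate variable, -0.064 without pair 3 and -0.047 without pair 4 (-0.066 to 0.20 over left-out libraries). Sp100 was -0.059 with TPM and -0.17 with the surrogate variable. Znfx1 was -0.049 with library size only, -0.11 with TPM, -0.17 with the surrogate variable and -0.020 without pair 4 (-0.054 to 0.19 over left-out libraries). Adar was -0.027 and Helz2 -0.18 with the surrogate variable.

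In F-PRT against NR, removing the length trend gave 0.21 for Dtx3l, 0.24 for Trim25, 0.038 for Samd9l, 0.23 for Slfn5, 0.079 for Znfx1 and 0.24 for Helz2. Sp100 was 0.018 with library size only, and Adar was -0.015 with TPM and -0.10 with the surrogate variable. Over left-out libraries the ranges were -0.0080 to 0.64 for Stat2, -0.078 to 0.58 for Parp9, -0.15 to 0.57 for Parp14, -0.36 to 0.12 for Dtx3l, -0.17 to 0.025 for Trim25, -0.18 to 0.14 for Sp100, -0.24 to 0.089 for Slfn5, -0.51 to 0.021 for Znfx1, -0.21 to 0.30 for Adar and -0.55 to 0.044 for Helz2.

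In F-PRT against S-PRT, where signs are given for the members named in the comparison, Mx1 was -0.51 with the block. Mx2 was -0.0027 without a filter, -0.033 with the stricter filter, -0.36 with the block and -0.073 with the length trend removed. Isg15 and Bst2 were 0.19 and 0.14 with library size only, 0.066 and 0.093 with TPM, and 0.27 and 0.14 with the surrogate variable, which gave 0.064 for Usp18 and 0.0013 for Dhx58. Over left-out libraries the ranges were -1.36 to 0.56 for Mx1, -0.98 to 0.37 for Mx2, -0.61 to 0.38 for Isg15, -0.91 to 0.13 for Usp18 and -0.43 to 0.25 for Bst2. Depth limits Mx1, whose NR values rest on 1 to 8 counts.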
